A study of Homo sapiens with 8 samples.

Results

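The collagen chain genes were taken as all rows of the expression table whose symbol had the form COL, a type number, the letter A and a chain number, such as COL4A1 for the first chain of collagen type IV. Among its 25369 gene symbols, 44 matched, and all were found in the gene annotation and placed in 9 collagen classes. The minimum for testing, 10 normalized counts or more in 2 or more of the 8 libraries, was reached by 21 of the 44 genes. The other 23 were too low to be tested and are described by their values.

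RNA-seq was carried out on MCF10A, a human mammary epithelial line that became immortal spontaneously and is not malignant, at passages 8 to 15. The cells had been held for 7 days inside 4 kinds of hydrogel, with 2 libraries per gel, so no library comes from cells on plastic or in tissue. Soft IPN was an interpenetrating network of alginate and reconstituted basement membrane (rBM), and stiff IPN was the same mixture with its alginate crosslinked by calcium. Soft col:rBM held collagen-1 protein (col-1) with rBM and no alginate, and stiff col was a dense col-1 gel with neither rBM nor alginate in its mixture. By the paper's methods the gels were placed in wells with a coat of gelled rBM, so the stiff col cultures were not free of rBM. The stiff IPN and soft IPN thus differ in calcium crosslinking, whereas the step from stiff IPN to stiff col changes col-1, rBM, alginate and calcium together, and that from soft col:rBM to stiff col changes stiffness, col-1 density and rBM together. The replicates stem from 2 independent trials, and the replicate number is called the trial below. The values are read counts divided by 1 factor per library and rounded, called normalized counts here. They summed to between 14306848 and 17999273 per library, and 3 reads, the most that a count of 0 allows, were worth 2.41 to 3.73 normalized counts, a limit that covers counting error only.

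Collagens are secreted or membrane proteins whose chains wind into a helix, and each class builds another structure. Fibrillar collagens form the fibers of connective tissue, type IV collagens form the sheet of the basement membrane, and type VI collagens form beaded microfilaments beside it. The transmembrane collagen XVII is a part of hemidesmosomes, which fix basal epithelial cells to the basement membrane, and collagen VII forms the anchoring fibrils below them. Mammary myoepithelial and basal cells lie directly on a basement membrane, while most fibrillar collagen of the breast is made by fibroblasts. Before secretion, prolyl and lysyl hydroxylases modify the chains, and after it lysyl oxidases crosslink them.

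The label of the cells was checked against marker genes. All 10 genes of a mammary epithelial list reached the minimum, and their summed level ranged from 124950 to 202957 normalized counts over the 8 libraries. Of 10 fibroblast markers 5 reached it, with a summed level of 1899 to 4014. The fibroblast surface gene THY1 was at 0 in all 8 libraries, LUM and COL14A1 never exceeded 1, PDGFRA 5 and PDGFRB 9. The 5 that reached it were S100A4 at 827 to 2159, DCN at 526 to 1217, FAP at 162 to 914, TWIST1 at 150 to 675 and POSTN at 5 to 139. Of 4 leukocyte markers CD68 and CSF1R reached the minimum, CD68 at 324 to 5017 and CSF1R at 166 to 648. The pan-leukocyte gene PTPRC was at 0 in all 8 libraries and CD3E never exceeded 1. Of 5 endothelial markers 3 reached the minimum, KDR at 22 to 267, TEK at 3 to 235 and PECAM1 at 2 to 32. VWF never exceeded 2, and CDH5 was at 0 in all libraries but stiff IPN replicate 2, where it was 7.

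Type IV collagen genes lie in pairs that start back to back. The stretches upstream of 7 genes described below are shown because these genes gave the highest levels or differed between gels. They were read from RefSeq (GRCh38.p14), in which 32 of the 44 genes had an entry and COL6A1 and COL1A1 had none. Capitals mark matches to short promoter motifs on either strand, where a motif on the other strand reads in reverse complement. The GC box was searched as GGGCGG. The second motif was the CCAAT motif, searched by the letters of its name. The TATA box was searched as TATAAA, and none of the marked matches overlaps another. COL4A1 and COL4A2, the chains of the common type IV network, start 126 bases apart on opposite strands, and the stretch between the starts is at chr13:110307158-110307283, given on the plus strand.
COL4A1 and COL4A2: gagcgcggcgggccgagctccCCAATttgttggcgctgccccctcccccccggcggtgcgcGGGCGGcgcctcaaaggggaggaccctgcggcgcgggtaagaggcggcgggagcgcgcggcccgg
COL4A5 and COL4A6, whose products join in the basement membranes of several epithelia, start 379 bases apart on chromosome X. The 250 bases upstream of each, at chrX:108439588-108439837 on the plus strand and chrX:108439459-108439708 on the minus strand, overlap.
COL4A5: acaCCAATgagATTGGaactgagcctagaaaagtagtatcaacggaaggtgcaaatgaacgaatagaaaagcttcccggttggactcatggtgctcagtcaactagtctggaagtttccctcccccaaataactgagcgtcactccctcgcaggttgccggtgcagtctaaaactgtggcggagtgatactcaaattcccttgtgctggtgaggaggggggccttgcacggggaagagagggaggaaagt
COL4A6: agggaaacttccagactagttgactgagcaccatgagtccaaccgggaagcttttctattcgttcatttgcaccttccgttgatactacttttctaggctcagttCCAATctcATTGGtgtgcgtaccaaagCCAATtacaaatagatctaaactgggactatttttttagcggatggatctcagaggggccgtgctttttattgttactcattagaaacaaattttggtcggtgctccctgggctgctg
The genes of collagen VI, COL6A2 on chromosome 21 and COL6A3 on chromosome 2, have upstream stretches of unlike make-up, at chr21:46097862-46098111 on the plus strand and chr2:237414165-237414414 on the minus strand.
COL6A2: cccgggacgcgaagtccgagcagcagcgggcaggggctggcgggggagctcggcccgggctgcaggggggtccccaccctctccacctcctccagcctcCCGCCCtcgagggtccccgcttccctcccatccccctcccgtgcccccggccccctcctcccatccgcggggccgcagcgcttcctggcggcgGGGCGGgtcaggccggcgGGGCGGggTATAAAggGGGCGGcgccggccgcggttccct
COL6A3: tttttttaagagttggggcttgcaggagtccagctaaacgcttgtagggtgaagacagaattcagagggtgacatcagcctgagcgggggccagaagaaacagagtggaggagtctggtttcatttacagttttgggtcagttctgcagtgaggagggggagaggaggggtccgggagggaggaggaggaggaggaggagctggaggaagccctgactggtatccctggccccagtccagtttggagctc
COL17A1 had the highest level of all collagen genes, and its upstream stretch is at chr10:104085881-104086130 on the minus strand.
COL17A1: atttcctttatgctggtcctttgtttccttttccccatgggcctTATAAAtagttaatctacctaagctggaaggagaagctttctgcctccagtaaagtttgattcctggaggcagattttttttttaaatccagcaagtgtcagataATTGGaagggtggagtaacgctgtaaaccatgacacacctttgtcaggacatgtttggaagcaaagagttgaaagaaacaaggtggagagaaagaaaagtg
The COL6A2 stretch held 4 GC boxes and 1 TATA box at a GC content of 79.6%, while the COL6A3 stretch held none of the 3 motifs at 56.0%. The COL17A1 stretch held 1 TATA box and 1 CCAAT motif at 40.4%, and the COL4A6 stretch held 3 CCAAT motifs, 2 of which are also those of the COL4A5 stretch. Among 35116 RefSeq stretches of the same 250 bases, 42.64% held a GC box, 32.01% a CCAAT motif and 10.72% a TATA box. The COL4A1 and COL4A2 stretch held 1 GC box and 1 CCAAT motif, as did 34.61% and 21.09% of stretches of 126 bases respectively, counted one motif at a time. A match of letters is a description of the stretch and not evidence of a bound site.

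Of the 23 genes under the minimum, 10 were at 0 in all 8 libraries: COL1A2, COL5A1 and COL11A1 of the fibrillar class, COL9A1, COL19A1 and COL20A1 of the fibril-associated class (FACIT), COL6A5, the short chain COL10A1, the multiplexin COL15A1 and the transmembrane COL23A1. Another 9 were above 0 in some library but never above 3, namely COL3A1, COL24A1, COL6A6, COL9A3, COL14A1, COL21A1, COL22A1, COL25A1 and COL26A1. The remaining 4 ranged from 0 to 12 (COL11A2), 0 to 7 (COL4A3), 0 to 11 (COL8A2) and 1 to 7 (COL9A2). By class, 5 of 6 type IV genes, 5 of 11 fibrillar genes, 3 of 5 type VI genes, 2 of 4 transmembrane genes, 2 of 10 FACIT genes, 1 of 2 multiplexins and 1 of 3 short chain genes reached the minimum, as did the anchoring fibril gene COL7A1 and COL28A1.

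The fibrillar class was incomplete in partner chains. COL1A1, which together with COL1A2 normally makes collagen I, was measured at 222 and 239 normalized counts in soft IPN, 168 and 265 in stiff IPN, 333 and 244 in soft col:rBM and 242 and 214 in stiff col (replicates 1 and 2). COL1A2 was at 0 in each of these libraries, which allows up to 2.41 to 3.73 normalized counts. COL5A2, a chain of collagen V, lay between 93 and 132 while its usual partner COL5A1 was at 0 in all 8 libraries and COL3A1 was at 0 or 1.

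Levels of different genes were compared per kb of the Ensembl canonical transcript. COL17A1 held 70.9% of the mean summed level of the 21 tested genes, with a mean of 4222 and a range of 2514 to 6458 normalized counts per kb. Next came COL4A5 with a mean of 438.2, COL4A6 with 381.6 and COL4A2 with 237.2 per kb. The anchoring fibril gene COL7A1 followed with 203 and COL4A1 with 116. COL4A5 and COL4A6 could not be told apart by their ranges (325 to 502 and 200 to 450 per kb), and with all exons of a gene in place of 1 transcript COL4A6 ranked above COL4A5. The highest gene of each other class was COL16A1 for the FACIT class (81.5 per kb), COL6A1 for type VI (59.3), COL1A1 for the fibrillar class (40.7), COL18A1 for the multiplexins (28.2) and COL8A1 for the short chains (20.6). At the low end were COL5A3, COL27A1 and COL4A4, with means of 1.67, 1.47 and 0.88 per kb, which were within reach of each other in their ranges.

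**Figure D1:**
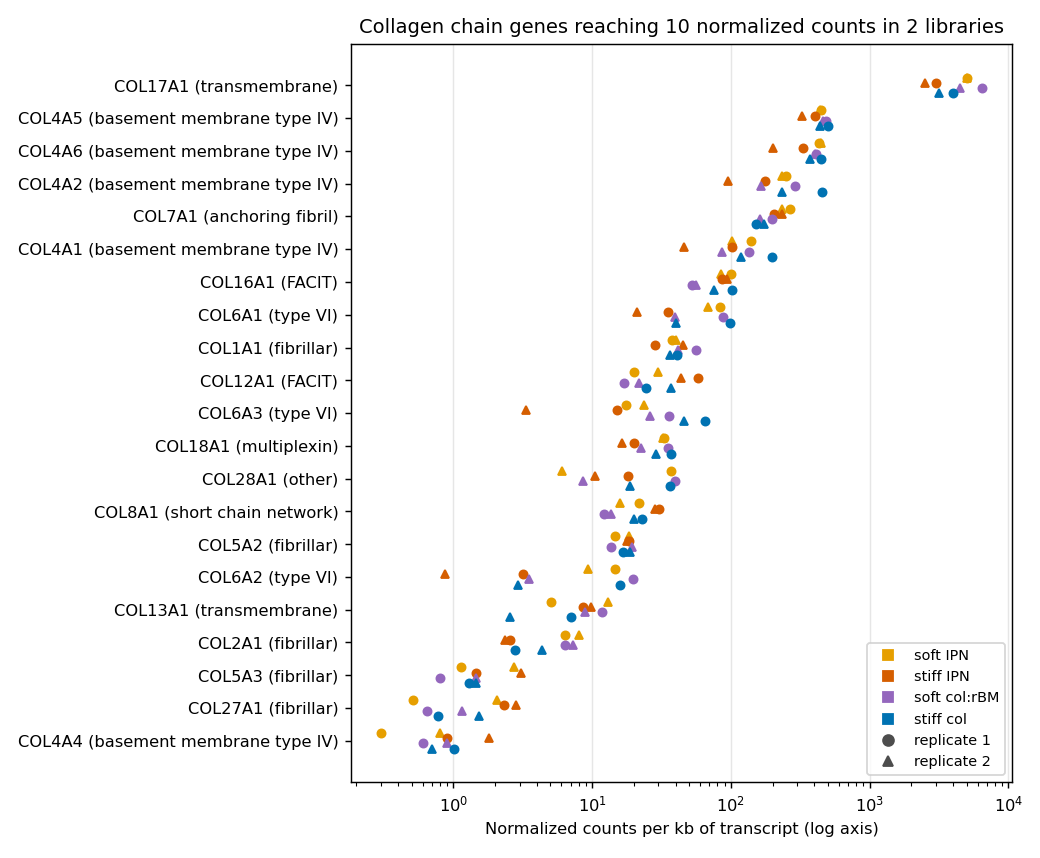
Level of each of the 21 collagen genes that reached the minimum, in normalized counts per kb of transcript on a log axis, with 1 point per library, color for the gel and shape for the replicate. COL17A1 lies above all others, between 2514 and 6458 per kb, and the stiff IPN replicate 2 point of COL6A3 and of COL6A2 lies far left of the other points of its row, at 3.32 and 0.87 per kb.

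As a share of all normalized counts of a library, the 44 genes together made up 0.23% in both soft IPN libraries, 0.18% and 0.16% in stiff IPN, 0.27% and 0.23% in soft col:rBM and 0.22% and 0.20% in stiff col. The 2 stiff IPN libraries were the lowest. COL17A1 made up between 64.2% and 77.1% of the summed collagen level per kb in every library. In these bulk libraries, fewer cells of a kind and less RNA per cell cannot be told apart.

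Summed per kb over a class, levels differed between gels in unlike ways. Transmembrane genes, nearly all COL17A1, summed to 5062 and 5036 per kb in soft IPN, 3026 and 2524 in stiff IPN, 6470 and 4529 in soft col:rBM and 4023 and 3171 in stiff col. Type IV genes summed to 1276 and 1224 in soft IPN, 1014 and 668 in stiff IPN, 1321 and 1115 in soft col:rBM and 1605 and 1169 in stiff col. In both classes the 2 stiff IPN libraries were the lowest of all 8. Type VI genes summed to 115 and 102 in soft IPN, 54.0 and 25.4 in stiff IPN, 144 and 68.9 in soft col:rBM and 180.03 and 89.0 in stiff col, and here too both stiff IPN libraries lay under all others. The fibrillar class stayed between 53.9 and 78.2 per kb, and its lowest value and the one next to its highest were both from stiff IPN. The FACIT class was lowest in soft col:rBM, with 71.4 and 81.3 against 114 to 146 in the other gels, and COL7A1, the only anchoring fibril gene, ranged from 153 to 268.

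**Figure D2:**
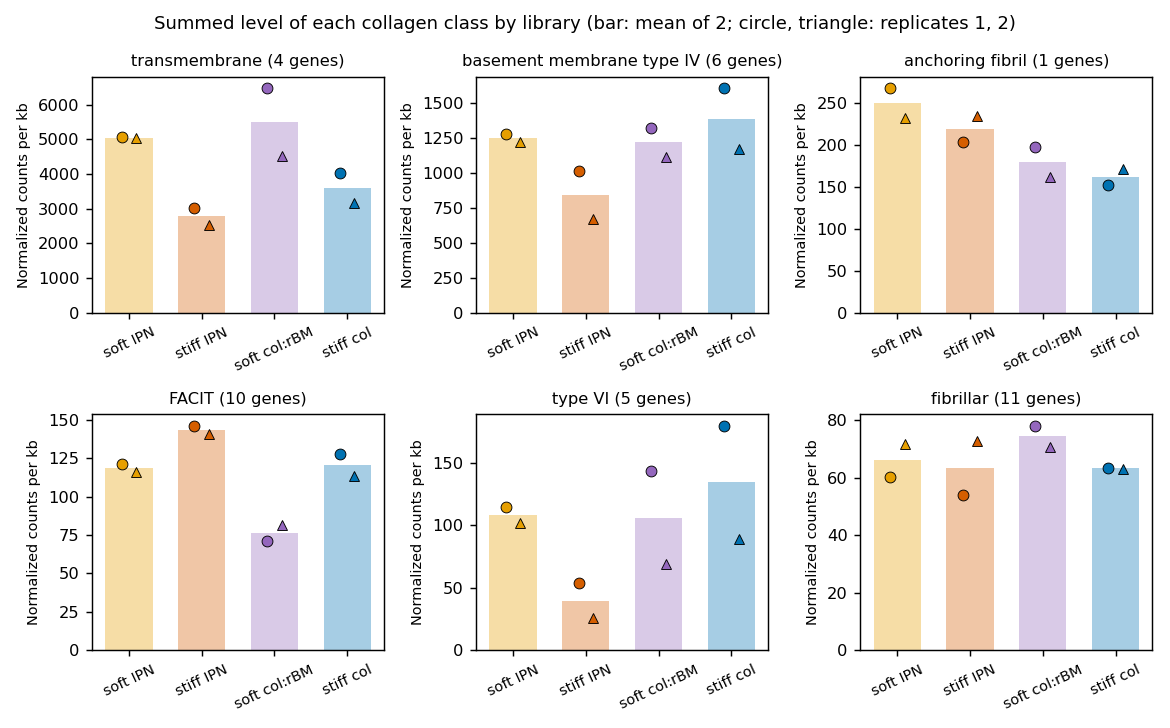
Summed normalized counts per kb for 6 collagen classes, with bars for the mean of the 2 libraries of a gel and circles and triangles for replicates 1 and 2. Each panel has its own axis from 0, and both stiff IPN points are the lowest in the transmembrane, type IV and type VI panels but not in the fibrillar and FACIT panels.

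Partner chains kept their ratio in some pairs and not in others. COL4A1 was present at 0.43 to 0.58 times the per kb level of COL4A2 in all 8 libraries, although COL4A2 itself ranged from 94.8 to 456 per kb. COL4A5 was at 0.98 to 1.62 times COL4A6, with the highest ratio in stiff IPN replicate 2. COL6A1 ranged from 4.47 to 24.04 times COL6A2, and from 0.89 to 6.30 times COL6A3, which was the highest chain relative to COL6A1 in stiff col replicate 2. These ratios are descriptions across libraries. The outermost transcripts of COL4A1 and COL4A2 overlap on opposite strands in the hg19 annotation, and the library kit does not mark the strand, so reads from the overlap cannot be told apart.

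Differences between gels were tested with limma on log2(normalized count + 1) over all 13369 genes that reached the minimum, and a gene was called at a Benjamini-Hochberg adjusted p under 0.05. The fit was made with 1 mean per gel, and again with the trial as a block because same-numbered replicates deviated together in each pair of gels. They did so least in pairs with stiff IPN, at r = 0.278 with soft IPN, 0.393 with soft col:rBM and 0.398 with stiff col. The other pairs had r = 0.654 to 0.819. With all 8 libraries, each collagen gene called between gels was called in a comparison with stiff IPN, where this pairing was weakest. Permuting 2 against 2 libraries in an exact test gives at best a two-sided p of 0.333, and each call therefore draws on limma's pooling of variance over genes. Without the block, limma called 0 of 21 collagen genes, and 0 genes in all, in each of the 4 gel comparisons. Unadjusted p values under 0.05 without the block were found for 8 collagen genes (1245 of all genes) between stiff and soft IPN, 5 (838) between stiff col and stiff IPN, 2 (140) between stiff col and soft col:rBM and 2 (190) between soft col:rBM and soft IPN. An F test of any difference among the 4 gels called 0 collagen genes without the block, with 7 (702 of all genes) at an unadjusted p under 0.05. With the block it called 0 as well, against 1.58% of all genes, and 13 (2645 of all genes) had an unadjusted p under 0.05.

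Stiff IPN was compared with soft IPN to see how the cells respond when the same basement membrane mixture is stiffened by calcium. Calcium and stiffness change together in this step, so their effects cannot be told apart. With the trial as a block, 3 of 21 collagen genes were called and all 3 were lower in stiff IPN, against 3.82% of all genes tested called in either direction, 1.69% higher and 2.13% lower. They were the type VI chains COL6A1 and COL6A2 and the hemidesmosome collagen COL17A1. None of the 5 fibrillar and 5 type IV genes tested was called. The median difference of the 21 genes was -0.19 on the log2 scale, with 14 lower and 7 higher (10 and 11 once the libraries were rescaled to equal totals), and that of all genes tested was -0.01. That rescaling moved the median of all genes by 0.27.

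All 3 type VI genes tested lay lower in stiff IPN. COL6A1 (chromosome 21, 47401684 to 47424964 in hg19), which encodes a chain that every collagen VI molecule needs, was at 348 and 289 normalized counts in soft IPN and 149 and 88 in stiff IPN. It was lower in both trials and the gels did not overlap. Its log2 fold change was -1.46 (SE 0.26 with the block), with a limma adjusted p of 0.0344 with the block and 0.506 without it. COL6A2 (chromosome 21, 47518026 to 47552762), the neighboring gene for a further obligate chain, was at 50 and 32 in soft IPN and 11 and 3 in stiff IPN, where the lower value is under the 3.28 that 3 reads are worth in that library. Its log2 fold change was -2.57 (SE 0.50 with the block), with an adjusted p of 0.0377 with the block and 0.520 without it, and with a pseudocount of 5 in place of 1 it was -2.0. When each of the 8 libraries was left out of the block fit in turn, the log2 fold change was -1.86 to -1.06 for COL6A1 and -3.31 to -1.82 for COL6A2. Both lost their call without soft IPN replicate 2. Such a fit leaves 1 gel with 1 library, which adds nothing to the estimated spread. Calls made in these fits, here and below, are therefore no measure of stability.

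COL6A3 (chromosome 2, 238232646 to 238322971), the longest of the common type VI chains, was not called between the IPNs. It was at 185 and 249 in soft IPN and 160 and 35 in stiff IPN. The gels did not overlap, but nearly all of the difference lay in trial 2, with -2.80 on the log2 scale there and -0.21 in trial 1. Its log2 fold change was -1.5 (SE 0.50), with a limma adjusted p of 0.118 with the block and 0.531 without it, and without stiff IPN replicate 2 the unblocked value was -0.42.

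COL17A1 (chromosome 10, 105791044 to 105845638) was at 28378 and 28190 normalized counts in soft IPN and 16935 and 14108 in stiff IPN. Both stiff IPN libraries lay well below both soft IPN libraries, which were close to each other. The log2 fold change was -0.87 (SE 0.17), which is 0.55 times the soft IPN level, with an adjusted p of 0.0373 with the block and 0.493 without it. The call depended on the libraries in the fit. It was made in 3 of 8 block fits that left out 1 library, and lost without soft IPN replicate 2 and without any 1 of the 4 collagen gel libraries, with adjusted p values between 0.0261 and 0.352. A block fit of the IPN gels alone gave COL17A1 an adjusted p of 0.0645.

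Type IV chains lay lower in stiff IPN in 4 of 5 cases without passing the test. COL4A1 was at 917 and 664 in soft IPN and 668 and 300 in stiff IPN, so that the gels overlapped, and its log2 fold change was -0.80 (adjusted p 0.0524 with the block). COL4A2 was at 1619 and 1510 against 1133 and 611 (-0.91, adjusted p 0.0558) and COL4A6 at 2907 and 2992 against 2228 and 1337 (-0.77, adjusted p 0.0677). In these 3 genes the step was larger in trial 2 than in trial 1. COL4A5 differed least, at 2936 and 2872 against 2622 and 2121 (-0.30, adjusted p 0.224). COL4A4, a chain of the network found in kidney and some other basement membranes, was near the limit of detection, with 3 and 8 in soft IPN and 9 and 18 in stiff IPN. Its difference of 1.20 had an adjusted p of 0.220 with the block and was 0.62 without soft IPN replicate 1.

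The fibrillar and FACIT genes did not share a direction. COL2A1, best known from cartilage, was at 32 and 41 in soft IPN and 13 and 12 in stiff IPN (log2 fold change -1.46, adjusted p 0.0616 with the block). COL12A1, a FACIT collagen that binds to fibril surfaces, was higher in stiff IPN in both trials, at 235 and 350 in soft IPN and 676 and 512 in stiff IPN, with a log2 fold change of 1.03 (adjusted p 0.0614). COL27A1 was at 4 and 16 in soft IPN and 18 and 22 in stiff IPN (1.18, adjusted p 0.195), and 0.30 without soft IPN replicate 1. For COL1A1 the difference was -0.13 with a 95% half-width of 0.69, for COL5A2 0.14 with 0.70 and for COL16A1 -0.03 with 0.52, all without the block. In all, 13 of 21 collagen genes had no overlap between the gels, against 41.9% of all genes tested, and in 7 of these the log2 fold change was at least 1 in size, against 7.23% of all genes.

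Stiff col was compared with stiff IPN to see what a dense col-1 matrix changes at high stiffness. With the block, 3 of 21 collagen genes were called and all 3 were higher in stiff col, against 2.47% of all genes called in either direction, 1.0% higher and 1.47% lower. These were the type IV chains COL4A1 and COL4A2 and the type VI chain COL6A3. The comparison shares its stiff IPN libraries with the one above, so the 2 sets of differences are not independent. The median difference was 0.37 for the 21 genes, with 12 higher and 9 lower (11 and 10 after rescaling to equal totals), and 0.00 for all genes tested.

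COL4A1 (chromosome 13, 110801310 to 110959504) was at 668 and 300 normalized counts in stiff IPN and 1286 and 776 in stiff col. It was higher in both trials by a like amount, 0.94 and 1.37 on the log2 scale. The log2 fold change was 1.16 (SE 0.18 with the block), with an adjusted p of 0.0235 with the block and 0.716 without it, and without stiff IPN replicate 2 the unblocked value was 0.58. COL4A2 (chromosome 13, 110958159 to 111165556) was at 1133 and 611 in stiff IPN and 2940 and 1506 in stiff col. Its log2 fold change was 1.34 (SE 0.21), 1.37 in trial 1 and 1.30 in trial 2, with an adjusted p of 0.0235 with the block and 0.602 without it. The unblocked value was 0.86 without stiff col replicate 1 and 0.89 without stiff IPN replicate 2. In block fits that left out 1 library COL4A2 was called in 6 of 8, lost without either stiff col library, and COL4A1 in 4 of 8, lost without any 1 of the soft IPN and stiff col libraries.

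COL6A3 showed the widest difference of all collagen genes in any comparison. It was at 160 and 35 in stiff IPN and 688 and 481 in stiff col, the highest level of the gene in any gel, with soft IPN at 185 and 249 and soft col:rBM at 377 and 275 in between. The stiff col and stiff IPN libraries lay far apart, most of all in trial 2. The log2 fold change was 2.92 (SE 0.50 with the block), 2.10 in trial 1 and 3.74 in trial 2, with an adjusted p of 0.0279 with the block and 0.353 without it. Without stiff IPN replicate 2 the unblocked value was 1.84, and in block fits without 1 library the call was made in 2 of 8, those that left out a stiff IPN library.

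The other type VI chains were higher in stiff col without passing the test. COL6A1 was at 149 and 88 in stiff IPN and 415 and 170 in stiff col (1.21, adjusted p 0.0572 with the block), and the unblocked value was 0.57 without stiff col replicate 1. COL6A2 was at 11 and 3 in stiff IPN and 55 and 10 in stiff col, where the gels overlap (1.84, adjusted p 0.102). Among type IV chains, COL4A6 was at 2228 and 1337 against 3007 and 2498 (0.67, adjusted p 0.125) and COL4A5 at 2622 and 2121 against 3276 and 2889 (0.38, adjusted p 0.193). COL17A1 was at 16935 and 14108 in stiff IPN and 22538 and 17783 in stiff col (0.37, adjusted p 0.274).

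Of the genes with low counts, 2 had values over 1 log2 unit below those of stiff IPN, and neither was called. COL13A1, a transmembrane collagen of cell contacts, was at 27 and 31 in stiff IPN and 22 and 8 in stiff col (-1.06, adjusted p 0.365 with the block), and -0.38 without stiff col replicate 2. COL27A1 was at 18 and 22 against 6 and 12 (-1.13, adjusted p 0.274), and -0.69 without stiff col replicate 1. COL1A1 differed by 0.11 with a 95% half-width of 0.69. No overlap between the gels was seen in 15 of 21 collagen genes, against 30.9% of all genes, and 6 of the 15 had a log2 fold change of at least 1 in size, against 5.82% of all genes.

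**Figure D3:**
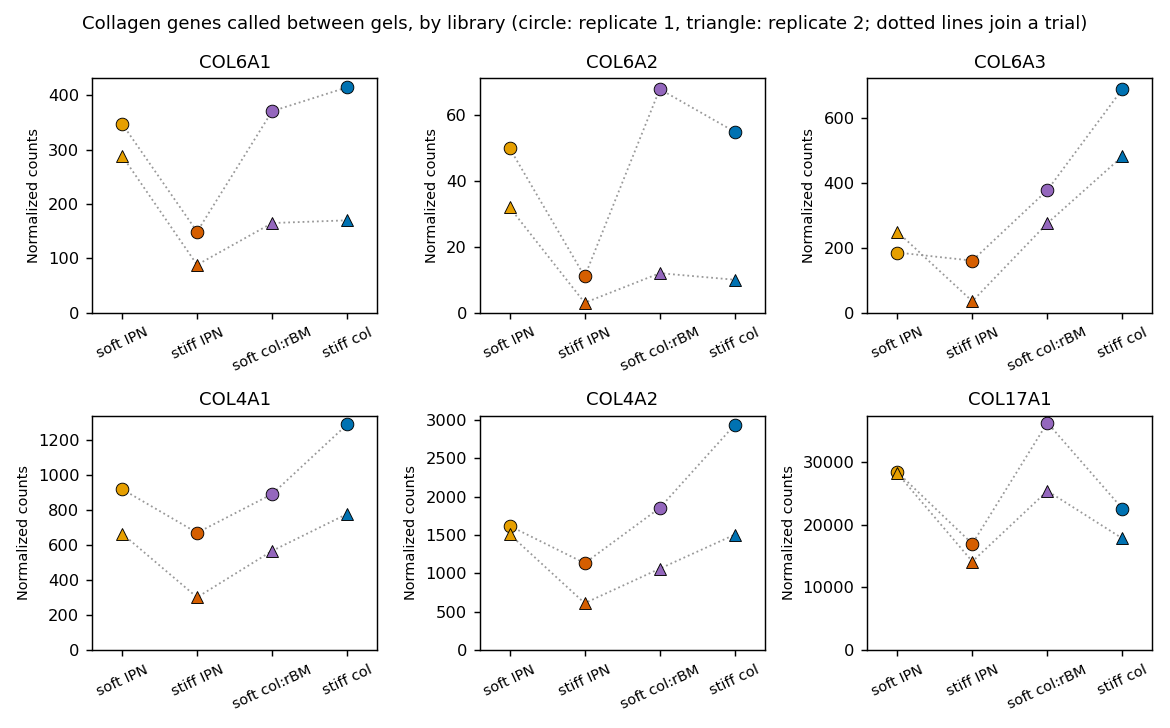
Normalized counts in every library for the 6 collagen genes called in either comparison with the trial as a block, with circles for replicate 1, triangles for replicate 2 and dotted lines that join a trial. In each panel the stiff IPN point is the lowest of its trial, and in trial 2 COL6A3 goes from 35 in stiff IPN to 481 in stiff col.

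Within the collagen gels, stiff col was set against soft col:rBM, and at low stiffness soft col:rBM against soft IPN. With the block, limma called 0 of 21 collagen genes in both, against 0% and 0.0224% of all genes called (0.0150% higher and 0.00748% lower in the second). At an unadjusted p under 0.05 with the block were 7 collagen genes (497 of all genes) in the first and 2 (636) in the second. When the block fit was made on the libraries of stiff col and soft col:rBM alone, 7 collagen genes were called, with 945 genes called in all. The lowest adjusted p values with the block were those of COL16A1, 0.862 and 0.617. COL16A1, a FACIT collagen, was at 543 and 459 in soft IPN, 284 and 305 in soft col:rBM and 552 and 408 in stiff col, so that soft col:rBM did not overlap either neighbor, at -0.76 (SE 0.19) against soft IPN and 0.69 (SE 0.19) for stiff col against soft col:rBM. COL8A1, a short chain collagen, was at 120 and 88 in soft IPN, 67 and 76 in soft col:rBM and 126 and 111 in stiff col, again with both soft col:rBM libraries lowest. COL17A1 was at 36245 and 25367 in soft col:rBM and 22538 and 17783 in stiff col (-0.60, SE 0.17, adjusted p 0.888). COL13A1 was at 37 and 28 against 22 and 8, a difference of -1.21 that was -0.53 without stiff col replicate 2. COL7A1 was at 2472 and 2145 in soft IPN and 1829 and 1496 in soft col:rBM (-0.48), with 1885 and 2165 in stiff IPN and 1409 and 1588 in stiff col.

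Between stiff col and soft col:rBM the type IV and type VI genes gave COL4A1 0.49, COL4A2 0.58, COL6A1 0.10, COL6A2 -0.27 and COL6A3 0.84 on the log2 scale, each with an adjusted p of 1.0 with the block. The trial values were 0.53 and 0.46 for COL4A1 (SE 0.18 with the block) and 0.87 and 0.80 for COL6A3 (SE 0.50). Values without overlap were seen in 8 of 21 collagen genes between stiff col and soft col:rBM, against 19% of all genes, and in 7 of 21 between soft col:rBM and soft IPN, against 20.7%. With a log2 fold change of at least 1 in size besides, these were 1 (COL13A1) and 0 collagen genes, against 1.20% and 1.89% of all genes.

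**Figure D4:**
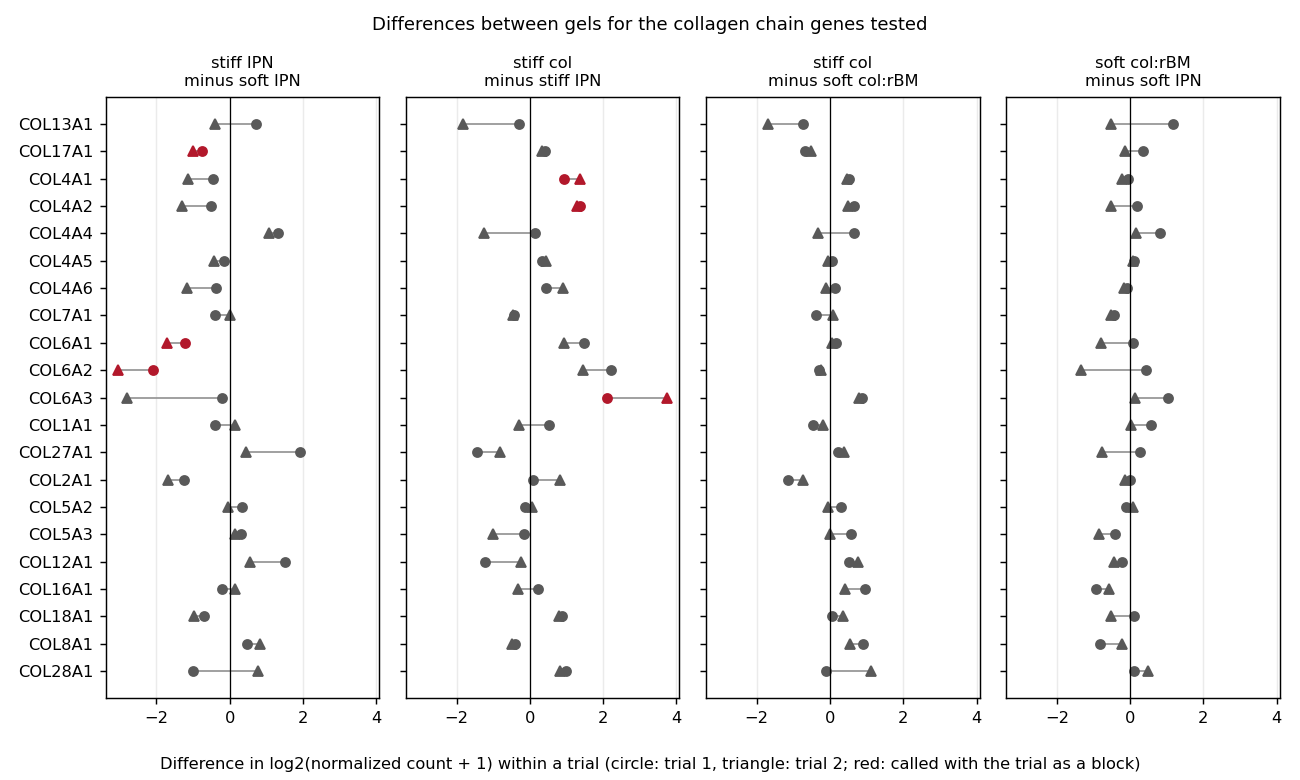
Difference between gels in log2(normalized count + 1) for the 21 tested collagen genes, with a circle for trial 1 and a triangle for trial 2, and red for genes called with the trial as a block. Red symbols are COL17A1, COL6A1 and COL6A2, all below 0 for stiff IPN minus soft IPN, and COL4A1, COL4A2 and COL6A3, all above 0 for stiff col minus stiff IPN, and the 2 panels to the right hold none.

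Whether the step from the soft to the stiff gel differed between collagen gels and IPNs was tested as the difference of both steps. In the collagen gels this step changes col-1 density and rBM along with stiffness, and in the IPNs it changes calcium. An effect of stiffness alone therefore cannot be told apart in either system. Limma called 0 of 21 collagen genes without the block, with 3 (278 of all genes) at an unadjusted p under 0.05. With the block it called 0 again, against 0.0150% of all genes, with 8 (1321 of all genes) at an unadjusted p under 0.05. The largest differences of steps in size were 2.34 for COL6A3, 2.29 for COL6A2, 1.56 for COL6A1, 1.49 for COL4A2, -1.37 for COL13A1 and 1.29 for COL4A1, with adjusted p values with the block of 0.360, 0.365, 0.253, 0.180, 0.641 and 0.180. A response that differs between both gel systems was therefore not shown for any collagen gene. Leaving out stiff IPN replicate 1 from the block fit gave 4 called collagen genes in this test, in a fit where 675 genes in all were called.

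The trials were compared as a measure of spread. Between replicate 2 and replicate 1 over all gels, limma called 5 of 21 collagen genes, all lower in replicate 2, against 27.1% of all genes called in either direction, 12.7% higher and 14.4% lower. The share of collagen genes called in either direction was thus not above the general one. The share called lower was above it, but rests on 5 genes that include the neighbors COL4A1 and COL4A2 and the neighbors COL6A1 and COL6A2. It is not read as a trait of the collagen genes. COL28A1 was at 158 and 26 in soft IPN, 78 and 45 in stiff IPN, 170 and 37 in soft col:rBM and 157 and 81 in stiff col, which is lower in replicate 2 in all 4 gels (log2 difference -1.61, SE 0.32, adjusted p 0.0107). COL6A2 fell by 1.74 and COL6A1 by 0.87 on the log2 scale, with adjusted p values of 0.0117 and 0.0142, and COL4A1 by 0.75 and COL4A2 by 0.69, with 0.0072 and 0.0149. All 5 were lower in replicate 2 in 4 of 4 gels. None of the 5 fibrillar genes tested was called, and the mean of their log2 values was higher in replicate 2 for all 5, by only 0.03 for COL1A1, which was higher in 2 of 4 gels. When any 1 of the collagen gel libraries was left out, 2 or 3 collagen genes were called between trials, and COL28A1 lost its call without either soft IPN library (adjusted p 0.0572 and 0.0544). In no collagen gene did the 4 libraries of one trial lie apart from the 4 of the other, against 19.8% of all genes, and 4.35% with a log2 difference of at least 1 in size.

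The genes that make, crosslink, bind and degrade collagen were counted as lists. Of 19 biosynthesis genes 18 were tested, and 17 of them had a lower mean log2 value in stiff IPN than in soft IPN, with a median of -0.62. With the block 5 were called, all lower, against 3.82% of all genes called and 2.13% called lower: P4HA1, a prolyl hydroxylase (-1.42, adjusted p 0.0067), PLOD1, a lysyl hydroxylase (-1.38, 0.0326), LEPREL1, a prolyl 3-hydroxylase (-1.41, 0.0281), the chaperone FKBP10 (-1.13, 0.0273) and CRTAP (-0.76, 0.0386). P4HA1 was at 6447 and 2540 in soft IPN, 2404 and 944 in stiff IPN, 5228 and 1809 in soft col:rBM and 4660 and 1759 in stiff col. The step from soft to stiff IPN was -1.42 and -1.43 in the 2 trials, and replicate 2 was lower than replicate 1 in all 4 gels. In stiff col all 18 had a higher mean log2 value than in stiff IPN (17 after rescaling to equal totals), with a median of 0.50, and 3 were called, against 2.47% of all genes: P4HA1 (0.93, adjusted p 0.0183), FKBP10 (0.88, 0.0470) and P4HA3 (1.61, 0.0476). Between trials 10 of the 18 were called, all lower in replicate 2, against 27.1% of all genes called and 14.4% called lower. Without stiff IPN replicate 2 the unblocked differences from soft IPN were -0.75 for P4HA1, -0.49 for LEPREL1, -0.49 for CRTAP and -0.75 for FKBP10, and P4HA1 was at -0.75 and LEPREL1 at -0.93 without soft IPN replicate 1. Against stiff col they were 0.25 for P4HA1, 0.50 for FKBP10 and 0.73 for P4HA3 without stiff IPN replicate 2, and 0.22, 0.41 and 0.57 without stiff col replicate 1. The summed level of the list was 66245 to 75771 normalized counts in soft IPN, 39694 to 49887 in stiff IPN, 49607 to 78620 in soft col:rBM and 47989 to 80163 in stiff col.

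Of 14 processing and crosslinking genes 10 were tested, 8 with a lower mean log2 value in stiff IPN (6 after rescaling to equal totals) and 2 of them called with the block, against 3.82% of all genes. LOX, a lysyl oxidase, was at 3207 and 4950 in soft IPN, 946 and 170 in stiff IPN, 6587 and 3325 in soft col:rBM and 4987 and 2277 in stiff col. From soft to stiff IPN, LOX fell by 3.31 in log2 units (adjusted p 0.0316). It was 3.07 higher in stiff col than in stiff IPN (adjusted p 0.0355), the only 1 of the 10 called there, against 2.47% of all genes. LOXL2 fell by 2.13 in stiff IPN (adjusted p 0.0486), more in trial 2 (-3.39) than in trial 1 (-0.87). Without stiff IPN replicate 2 the unblocked differences from soft IPN were -2.07 for LOX and -0.82 for LOXL2, and LOX in stiff col was 1.83 above stiff IPN.

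Of 10 collagen receptors 7 were tested. With the block 1 of the 7 was called in each comparison, against 3.82% of all genes between stiff and soft IPN and 2.47% between stiff col and stiff IPN. The same shares stand beside the calls of the lists that follow. In both comparisons it was the integrin gene ITGA10, at -1.30 in stiff IPN against soft IPN (adjusted p 0.0229) and 1.42 in stiff col against stiff IPN (adjusted p 0.0134). Without stiff IPN replicate 2 these were -0.44 and 0.56 without the block, and -0.56 without soft IPN replicate 1 and 0.69 without stiff col replicate 1. The main collagen-binding pair was present throughout, with ITGB1 at 21026 to 47616 and ITGA2 at 1789 to 3942 normalized counts. Of 7 collagenases and other degrading enzymes 5 were tested, with 1 called in the first comparison and 2 in the second. MMP1, a collagenase, was at 76 and 86 in soft IPN and 28 and 5 in stiff IPN (-2.63, adjusted p 0.0393, and -1.5 without stiff IPN replicate 2 and the block). It was at 142 and 77 in soft col:rBM and 32 and 14 in stiff col, so both stiff gels were low. MMP2 and MMP14, a gelatinase and a membrane collagenase, were higher in stiff col than in stiff IPN by 2.04 (adjusted p 0.0200) and 0.96 (adjusted p 0.0327). Of 11 basement membrane partners of collagen IV 9 were tested, and all 9 had a lower mean log2 value in stiff IPN than in soft IPN and a higher one in stiff col than in stiff IPN (8 of 9 each after rescaling to equal totals). The laminin gene LAMB1 was called (-0.89 in stiff IPN, adjusted p 0.0386, and without the block -0.11 when soft IPN replicate 1 and -0.34 when stiff IPN replicate 2 was left out), none was called in the second comparison, NID2 was at 0 in all 8 libraries and NID1 never exceeded 4. These counts by direction are descriptions, beside medians of -0.01 and 0.00 for all genes tested.

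Marker genes of cell types moved between the same gels. With the block, 3 of 10 mammary epithelial markers were called in stiff IPN against soft IPN, against 3.82% of all genes. KRT17 (1.88, adjusted p 0.0067) and CDH1 (0.91, 0.0376) rose and ITGB4 (-1.45, 0.0292) fell. In stiff col against stiff IPN 4 of the 10 were called, against 2.47% of all genes. These were CDH1 (-1.63, 0.0078), EPCAM (-1.71, 0.0279), KRT14 (-1.52, 0.0328) and KRT17 (-2.57, 0.0030), which all fell. Of the 10 markers, 4 were higher and 6 lower in the first comparison, and 3 higher and 7 lower in the second. The same shares of all genes stand beside the calls of the other marker lists. Of the 5 fibroblast markers tested, FAP (1.83, adjusted p 0.0254) and POSTN (2.08, 0.0310) rose in stiff IPN, while DCN (-0.11), S100A4 (-0.06) and TWIST1 (-0.61) were not called, and the median of the 5 was -0.06. In stiff col against stiff IPN, FAP fell by 1.76 (adjusted p 0.0223) and was the only 1 of the 5 called. There 3 of the 5 were higher and 2 lower, with a median of 0.42. The summed fibroblast list was 3256 to 3399 in soft IPN, 3177 to 4014 in stiff IPN, 1899 to 2361 in soft col:rBM and 3022 to 3410 in stiff col. THY1 and LUM of that list were at or near 0 in all 8 libraries. CD68 and CSF1R of the leukocyte list fell in stiff IPN (-2.24, adjusted p 0.0126, and -1.31, 0.0412), with a summed list of 2543 to 4743 in soft IPN, 552 to 1387 in stiff IPN, 1724 to 5666 in soft col:rBM and 1255 to 4642 in stiff col, while PTPRC was at 0. TEK of the endothelial list fell in stiff IPN (-3.71, adjusted p 0.0374) and was higher in stiff col than in stiff IPN (3.66, 0.0418), with a summed list of 254 to 419, 42 to 115, 163 to 451 and 168 to 407 in the 4 gels in the same order, while VWF and CDH5 were at or near 0. From stiff IPN to stiff col, CD68 was higher by 1.72 (adjusted p 0.0187). TEK was at 41 and 3 in stiff IPN, the second under the 3.28 that 3 reads are worth there. Without stiff IPN replicate 2 the unblocked differences between stiff and soft IPN were -2.01 for TEK, -1.28 for CD68, -0.86 for ITGB4 and 0.94 for KRT17, and those between stiff col and stiff IPN were 1.97 for TEK, 0.77 for CD68, -0.95 for KRT14 and -1.63 for KRT17. KRT17 was at 1.0 between stiff and soft IPN without soft IPN replicate 1, and CD68, KRT14 and KRT17 were at 0.65, -0.39 and -1.52 between stiff col and stiff IPN without stiff col replicate 1. The part of these markers in the collagen differences was not tested.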

How the data were processed

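RNA-seq of 8 libraries, 2 for each of 4 gels, was analysed from 1 table of the whole series. The authors trimmed the reads (Trim Galore 0.3.3), aligned them to hg19 (TopHat2 2.0.13 in the submitters' processing notes, Bowtie2 in the paper's methods), counted them per gene with HTSeq and normalized the counts with DESeq2. The deposited values are a signal: these counts divided by 1 factor per library and rounded by the authors, so no count test was used. The annotation and strand setting of the counting are not given in the sources used here. Factors read from the steps in the values gave 13065615 to 18587739 counts on genes per library. The paper's libraries were sequenced as read pairs, so a count can stand for a pair. These figures are not the sequencing depth that the paper gives. Of 25369 symbols 28 had been turned into dates and were not assigned to genes.

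Genes with at least 10 normalized counts in at least 2 libraries (13369) were fitted as log2(value + 1), with a pseudocount of 1, in limma 3.58.1 under R 4.3.3 and statmod 1.5.0 with trend and robust moderation. Each gel had 1 mean, with Benjamini-Hochberg adjustment over all genes tested. Summaries and plots used Python 3.11.15, pandas 2.3.3 and matplotlib 3.10.9. A fold change on this scale understates that of low genes. Same-numbered replicates deviated together in each of the 6 pairs of gels (r = 0.278 to 0.819 across genes), so the numbers were taken to pair the libraries as independent trials, and fits with the replicate block stand beside those without. Separate cultures are not otherwise labelled, so p values measure the spread between these libraries.

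Positions and transcript lengths are from GENCODE 44 lifted to hg19, and upstream sequences from RefSeq on GRCh38.p14. Full values were given for genes called in either fit, for non-overlapping differences of at least 1 (log2) and for the highest gene per kb of each class, and for at most 4 genes of each other list. The members, classes and gene lists were chosen with earlier results of these data known. The fits were checked on simulated data. Alternatives were other pseudocounts, filters, scalings and moderation, fits to the compared gels alone, and leaving out each library, the last with the block, and for genes of the other lists, chosen after seeing the data.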

Additional observations from a re-analysis of the deposited data

How the results depend on the processing

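Without the replicate block, limma called 0 collagen genes in each gel comparison under all pseudocounts, filters, scalings, moderation settings and left-out libraries tried. With the block, 3 were called between stiff and soft IPN (511 of all genes) and 3 between stiff col and stiff IPN (330), and in fits of only the gels compared with the block 2 and 3, while that fit called 7 collagen genes (945 of all genes) between stiff col and soft col:rBM, where the block fit of all 8 libraries called 0. Leaving out 1 library with the block, added after seeing the data, gave 0 to 8 called between stiff and soft IPN, 0 to 7 between stiff col and stiff IPN, 0 to 4 for the difference of both stiffness effects and 0 to 9 for any difference among the 4 gels, with the highest count each time without stiff IPN replicate 1. Between trials, 2 to 7 were called without 1 library, against 5 with all. Over all 8 libraries, the block changed no collagen call in the soft col:rBM comparisons or in the 2 tests over all gels. None of the differences called in a fit of all 8 libraries, or at least 1 in size without overlap, reversed its sign in the alternatives run. Other differences were not followed. Rescaling to equal totals moved the median of all genes by 0.27 between stiff and soft IPN and by -0.11 between stiff col and stiff IPN, and the collagen median to 0.08 and 0.26, against 0.26 and -0.11 for all genes. The type VI chains kept their directions there (3 of 3 lower, then 3 of 3 higher), as did 4 of 5 type IV chains. The 2 libraries per gel and the values near 10 in COL4A4, COL27A1, COL13A1 and COL6A2 limit the precision. The cause of these changes was not tested.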

Other observations

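Rows next to the collagen chains by name were near 0 or outside the family. The collagen VI pseudogene parts COL6A4P1 and COL6A4P2 were at 0 or 1 in all 8 libraries, and the antisense rows COL4A2-AS1, COL18A1-AS1 and COL18A1-AS2 were at 0 in all 8, although the library kit does not mark the strand. COL4A3BP, which encodes a ceramide transfer protein and no collagen, was at 422 to 662 normalized counts and was left out because of its name.

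The single genes of the smaller classes gave COL18A1, a multiplexin of basement membranes and the source of endostatin, at 179 and 176 normalized counts in soft IPN, 109 and 89 in stiff IPN, 192 and 122 in soft col:rBM and 200 and 155 in stiff col. Both stiff IPN libraries were the lowest. Its log2 fold change was -0.84 in stiff IPN against soft IPN and 0.83 in stiff col against stiff IPN, with limma adjusted p values with the block of 0.0755 and 0.103, and the gene overlaps SLC19A1 on the other strand in the hg19 annotation, so that reads of both cannot be told apart there. COL5A3 lay between 5 and 19 normalized counts, higher in replicate 2 than in replicate 1 in all 4 gels, with a difference of 0.76 that was not called (adjusted p 0.121).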
